A study of Mus musculus with 6 samples.

Results

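DNA damage response and repair genes were compared between regulatory T cells (Tregs) of wild-type (WT) mice and Tregs in which the deacetylase HDAC11 had been deleted. The 47 genes were chosen by name from the repair pathways, with earlier results of these data known. Of them 44 were measured by probe sets that carry a single gene symbol, out of 12393 genes covered in the same way. Fancd2, Lig4 and Mdc1 were not analysed here. CD4+CD25+ cells separated with magnetic beads were profiled on 6 Mouse430A arrays (Affymetrix), 3 from C57BL6 WT mice and 3 from fl-HDAC11/Foxp3cre mice, written here as HDAC11−/−. In the latter a Cre under control of Foxp3 deletes a loxP-flanked Hdac11, so the deletion is confined by design to cells that express or have expressed Foxp3, and the WT labels name no Cre. The labels give neither age nor sex for the arrays and do not tie an array to a mouse, so p-values measure the spread between these samples only.

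Cells meet DNA lesions with separate sets of proteins. Sensor complexes and checkpoint kinases detect breaks and stalled forks and hold the cell cycle. Double-strand breaks are mended by homologous recombination, which copies the sister chromatid and is used mainly in S and G2 phase, or by end joining, which ligates the ends in any phase and also serves V(D)J recombination in lymphocytes. Base excision repair removes damaged or deaminated single bases, nucleotide excision repair removes bulky lesions such as those made by ultraviolet light, and mismatch repair corrects errors left by replication.

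Values are log2 RMA expression (robust multiarray average, a background-corrected and normalized summary of a probe set), and a difference is HDAC11−/− minus WT on that scale. Array medians lay between 6.74 and 6.77, and the median SD between arrays of a group was 0.090 in WT and 0.066 in HDAC11−/−. The number of arrays limits the precision. Both probe sets of Hdac11 itself were dim and gave no difference. The brighter one (1451229_at) read 6.31, 6.37 and 6.53 in WT against 6.36, 6.28 and 6.22 in HDAC11−/− (difference −0.12, limma adjusted p = 0.222), and as the position of both within Hdac11 is not known here, the targeted gene does not check the labels. HDAC11−/− below means the arrays so labelled, and every direction rests on those labels. The probe set of Foxp3 did not rise above the brightest bacterial control on any of the 6 arrays, whereas Il2ra, which encodes CD25, averaged 10.95 in WT and 10.94 in HDAC11−/−.

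A gene was called when its brightest probe set had a Benjamini-Hochberg adjusted p under 0.05 (limma, over all 22626 probe sets tested) and at least a 1.5-fold difference. Of the 44 repair genes, 10 were called higher in HDAC11−/− Tregs and 0 lower, where 3.46% of all genes were called higher and 3.72% lower. The 10 were Brca1, Rad51ap1, Exo1, Rad54l, Polh, Chek1, Neil3, Ung, Msh6 and Nbn, and they belong to recombination, mismatch repair, base excision, checkpoint signalling and lesion bypass. None of the end joining or nucleotide excision genes was called. By adjusted p alone, 22 repair genes were higher and 8 lower, against 22.9% and 23.2% of all genes. When a call through any probe set of a gene was counted, 10 were higher and 3 lower (Polb, Polg and Xpa), against 5.31% and 6.66% of all genes. The median difference was 0.23 over the 44 genes and −0.04 over all genes, and 35 of the 44 had groups that did not overlap, against 57.8% of all genes. Scaling the arrays on 12 reference genes moved the median of all genes from −0.04 to −0.15 and that of the 44 from 0.23 to 0.11. By adjusted p 4 of these 12 were themselves higher in HDAC11−/− and 1 was lower, with Hprt (0.51) and Pgk1 (0.49) the highest. Differences of the reference genes between the groups therefore enter this scale. The thresholds fell between near neighbours, with Nbn (0.59) and Msh6 (0.61) just inside and Xrcc5 (0.58) just outside.

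**Figure D1:**
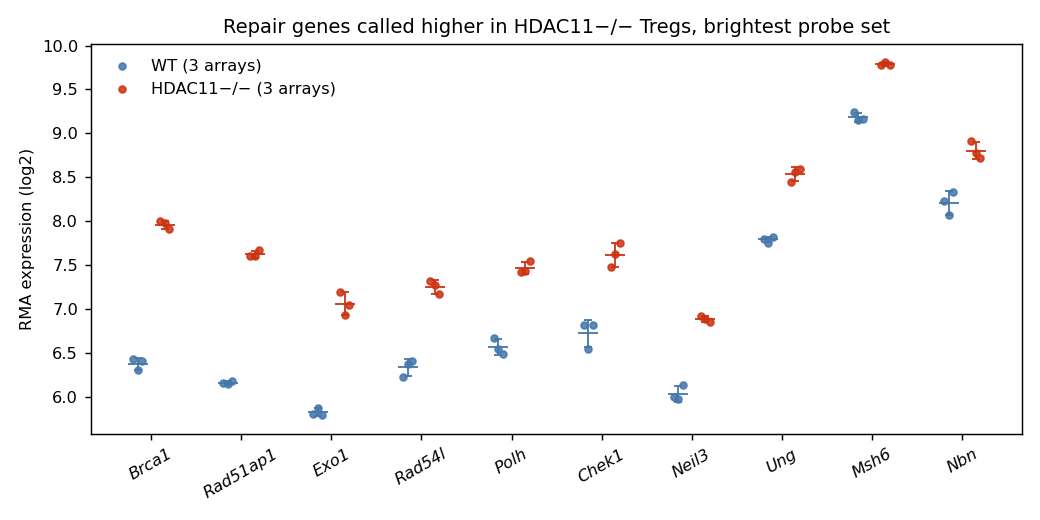
RMA expression (log2, vertical axis) of the brightest probe set of the 10 repair genes called higher, with 1 point per array (blue, WT; red, HDAC11−/−), the mean as a line and the SD as the error bar. All 3 HDAC11−/− arrays lie above all 3 WT arrays in each gene, from a difference of 1.58 for Brca1 to 0.59 for Nbn.

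Promoter sequence was available from RefSeq (GRCm38.p6) for 35 of the 44 genes, 8 of them among those called higher (not Nbn or Exo1), and 3 sets of letters tied to cell cycle genes were looked up on both strands in the 250 bases before the gene start. The E2F letters (TTTGGCGC, TTTCCCGC, TTTGCCGC and TTTCGCGC) were found in 0 of the 8 called genes and in 5 of the other 27 (18.5%), and in 3.37% of the 9882 measured genes with a window. None of these 5 reached 1.5-fold, but Brca2 (0.45), Nthl1 (0.33), Xrcc6 (0.30) and Bard1, at the level of bacterial controls, were higher by adjusted p. Chek2 (0.32, limma adjusted p = 0.054) did not pass. The split between called and other genes therefore depends on the fold threshold. The 5 with E2F letters are shown because none of them was called, with the match in capitals, each as 60 bases of the strand that the gene is read from.
Brca2: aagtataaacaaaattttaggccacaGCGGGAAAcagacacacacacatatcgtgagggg
Bard1: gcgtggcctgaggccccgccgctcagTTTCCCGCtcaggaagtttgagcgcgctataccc
Chek2: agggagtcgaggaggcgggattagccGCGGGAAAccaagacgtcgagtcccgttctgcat
Xrcc6: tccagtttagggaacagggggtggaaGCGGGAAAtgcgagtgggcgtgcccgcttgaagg
Nthl1: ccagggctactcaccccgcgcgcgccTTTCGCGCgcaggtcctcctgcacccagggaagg
These stretches are chr5:150522427-150522486 (plus strand), chr1:71103148-71103207 (minus), chr5:110839805-110839864 (plus), chr15:82016297-82016356 (plus) and chr17:24632524-24632583 (plus) in the order printed. Their matches end 160, 201, 144, 38 and 124 bases before the start of the gene.

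The CCAAT box (CCAAT, bound by the factor NF-Y) was found in 4 of the 8 called genes and in 15 of the other 27 (55.6%), against 39.8% of the measured genes and 33.8% of all 32851 promoter windows of that length. The CHR letters (TTTGAA) were found in 0 of 8 and 2 of 27 (7.41%), against 13.8% of the measured genes and 16.0% of all windows. The E2F letters were in 1.86% of all windows. The 4 called genes with a CCAAT box follow, with the match nearest to the start in capitals.
Brca1: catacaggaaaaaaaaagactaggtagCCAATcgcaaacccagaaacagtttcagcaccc
Rad51ap1: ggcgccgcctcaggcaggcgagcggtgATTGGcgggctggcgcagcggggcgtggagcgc
Rad54l: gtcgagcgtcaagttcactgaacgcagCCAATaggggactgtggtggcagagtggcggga
Msh6: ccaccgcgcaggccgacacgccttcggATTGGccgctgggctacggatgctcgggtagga
They are chr11:101552009-101552068 (minus), chr6:126939591-126939650 (minus), chr4:116123708-116123767 (minus) and chr17:87974989-87975048 (plus), with the match 81, 31, 45 and 29 bases before the start. A match of letters is a description of the window and no measure of binding, and a window without them says nothing about the factor.

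Homologous recombination and crosslink repair held the genes with the largest differences of the 44 by brightest probe set, Brca1 and Rad51ap1. Of its 8 measured genes 3 were called higher, against 3.46% of all genes. By adjusted p 6 were higher and 0 lower, against 22.9% and 23.2% of all genes. Of these 6, Bard1 was at the level of bacterial controls in both groups. The median difference was 0.42 (0.31 when scaled on reference genes). Brca1, the ubiquitin ligase subunit that directs breaks to recombination, read 6.43, 6.30 and 6.41 in WT and 8.0, 7.98 and 7.91 in HDAC11−/−. The groups were far apart, with a difference of 1.58 ± 0.05 (SE), or 2.99-fold, and an adjusted p of 7.32e-06. Rad51ap1, an accessory factor of recombination, read 6.16, 6.15 and 6.18 in WT and 7.60, 7.61 and 7.67 in HDAC11−/− Tregs, a difference of 1.47 ± 0.05 (adjusted p = 4.51e-06). Its next probe set (1448899_s_at) gave a difference of 1.63. Rad54l, a motor protein that moves along DNA during recombination, read 6.23, 6.37 and 6.41 against 7.32, 7.27 and 7.17. That is a difference of 0.91 ± 0.07 (adjusted p = 0.000137), and its other probe sets, both at the level of bacterial controls in WT, were at least 1.23-fold and 1.10-fold higher.

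Brca2, a mediator of recombination that acts on single-stranded DNA, read 7.14, 7.05 and 7.28 in WT and 7.62, 7.60 and 7.61 in HDAC11−/− Tregs. Its groups did not overlap and the difference of 0.45 ± 0.07 passed the adjusted p (0.00192) but not 1.5-fold. Bard1, the partner of BRCA1, is counted among those past the adjusted p (0.0284) but did not exceed the brightest bacterial control on any of the 6 arrays (4.28, 4.12 and 3.95 against 4.64, 4.32 and 4.57), so no fold is given. The helicase Blm passed with 0.30. The helicase Wrn (0.25, adjusted p = 0.0953) and the crosslink repair gene Fanca (0.09, adjusted p = 0.423) did not pass. A dimmer probe set of Fanca pointed the other way, at −0.32 (adjusted p = 0.0223).

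**Figure D2:**
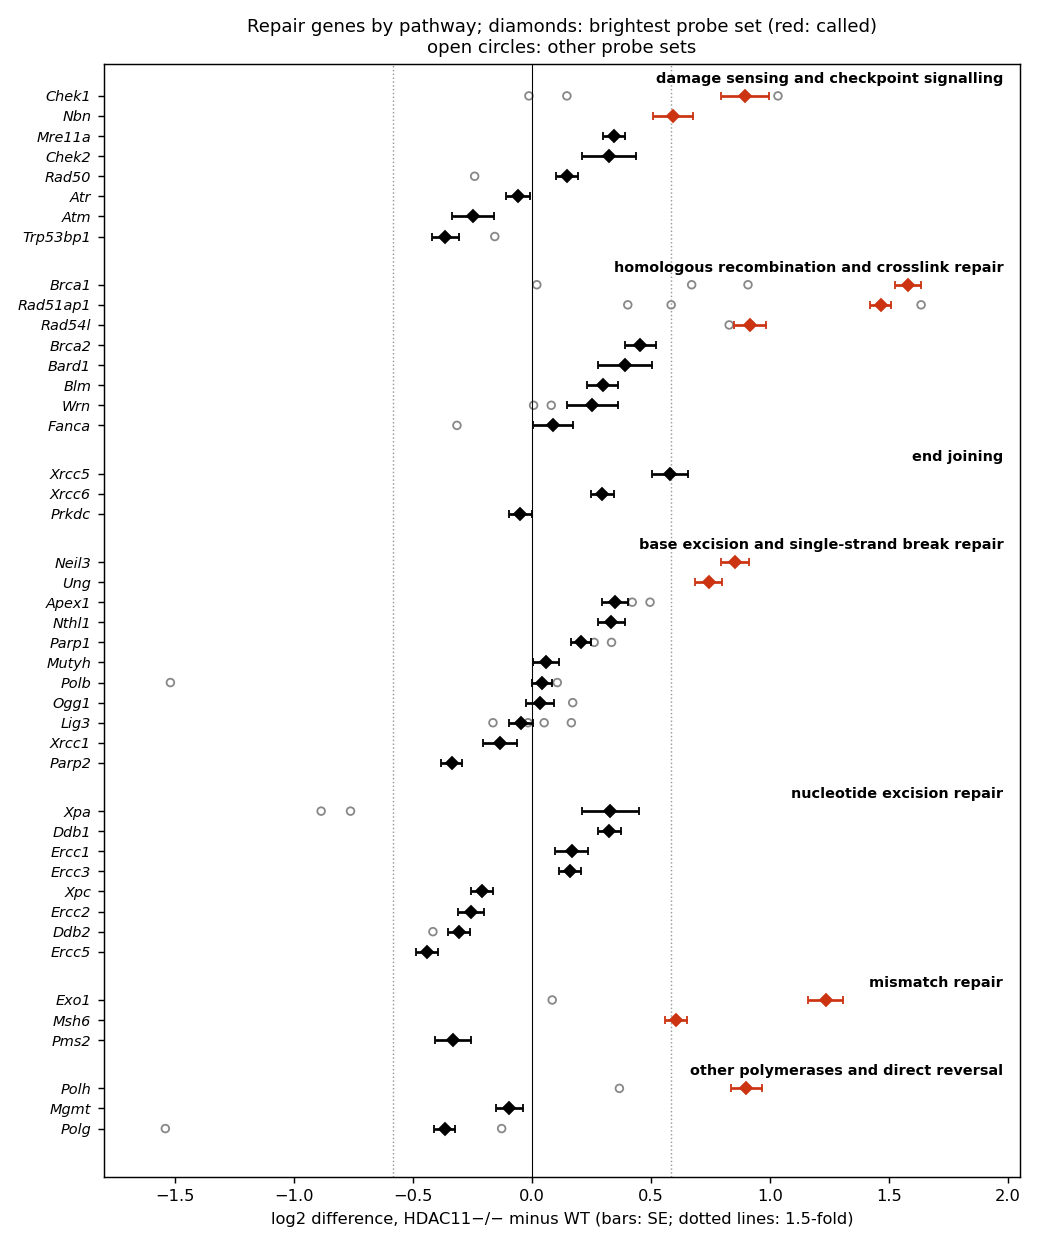
Difference of each of the 44 repair genes (horizontal axis, log2, HDAC11−/− minus WT) by pathway. Diamonds are brightest probe sets with the SE as the bar (red, called), open circles are other probe sets of the same gene, and dotted lines mark 1.5-fold. Recombination genes all lie to the right of 0 by their brightest probe set, nucleotide excision genes lie between −0.44 and 0.33, and Polb, Polg and Xpa have open circles far to the left.

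Among the sensors and checkpoint kinases 2 of 8 were called higher, against 3.46% of all genes. By adjusted p 4 were higher and 1 lower, against 22.9% and 23.2% of all genes. The median was 0.24 (0.12 when scaled on reference genes). Chek1, the kinase that acts below ATR at stalled forks, read 6.82, 6.55 and 6.82 in WT and 7.48, 7.63 and 7.75 in HDAC11−/−. All HDAC11−/− arrays were higher, by 0.89 ± 0.10 or 1.86-fold (adjusted p = 0.000704), and a second probe set (1450677_at) gave 1.03. Nbn, the subunit that links the MRE11 complex to ATM, read 8.23, 8.07 and 8.33 against 8.91, 8.77 and 8.72, a difference of 0.59 ± 0.08 (adjusted p = 0.00179). This call was lost when WT replicate 2 (0.52) or HDAC11−/− replicate 1 (0.54) was left out, and with scaling on reference genes (0.48). The other subunits of that complex, Mre11a (0.34) and Rad50 (0.15), passed the adjusted p. Trp53bp1, which shields ends from resection, was lower by adjusted p (−0.37), with a second probe set at −0.16 that did not pass (adjusted p = 0.054). The kinases Atm (−0.25, adjusted p = 0.0608), Atr (−0.06, adjusted p = 0.379) and Chek2 (0.32, adjusted p = 0.054) did not pass.

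End joining had 3 measured genes and no call, where 3.46% of all genes were called higher and 3.72% lower. Xrcc5 (Ku80) and Xrcc6 (Ku70) encode the ring that binds broken ends. Xrcc5 read 7.74, 7.65 and 7.93 in WT and 8.34, 8.35 and 8.37 in HDAC11−/− Tregs, a difference of 0.58 ± 0.08 (adjusted p = 0.00132) or 1.49-fold. Its groups did not overlap and the fold fell just short of the threshold, and it was called without WT replicate 3 (0.66). Xrcc6 was higher by 0.30 ± 0.05 (adjusted p = 0.00294). Prkdc, the catalytic subunit of the DNA-dependent kinase that Ku recruits, did not pass (−0.05, adjusted p = 0.434).

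In base excision and single-strand break repair 2 of 11 genes were called higher, against 3.46% of all genes. By adjusted p 5 were higher and 1 lower, against 22.9% and 23.2% of all genes. The median was 0.06, and −0.06 when the arrays were scaled on reference genes. The called genes are both glycosylases, which cut out a damaged base. Ung, the uracil glycosylase, read 7.80, 7.76 and 7.82 in WT against 8.45, 8.56 and 8.60 in HDAC11−/− (0.74 ± 0.06, 1.67-fold, adjusted p = 0.000146). Neil3, which acts on oxidized bases and on crosslinks, read 6.0, 5.97 and 6.14 against 6.92, 6.89 and 6.86 (0.85 ± 0.06, 1.81-fold, adjusted p = 0.000103). In both genes every HDAC11−/− array was above every WT array. The other glycosylases differed less, with Nthl1 passing the adjusted p at 0.33 and Ogg1 (0.03, adjusted p = 0.678) and Mutyh (0.06, adjusted p = 0.415) not passing.

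The genes that act after base removal are given next, with Polb below among the genes whose probe sets diverge. Apex1, the endonuclease that nicks the abasic site, read 10.13, 10.13 and 9.99 in WT and 10.39, 10.46 and 10.45 in HDAC11−/−, a difference of 0.35 that passed the adjusted p (0.00274). Its other probe sets gave 0.42 and 0.50. Parp1 and Parp2, which mark single-strand breaks with poly(ADP-ribose), passed in opposite directions, at 0.21 (adjusted p = 0.00891) and −0.34 (adjusted p = 0.00136). The scaffold Xrcc1 (−0.14, adjusted p = 0.167) and its ligase partner Lig3 did not pass, and the 5 probe sets of Lig3 lay between −0.16 and 0.16.

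Nucleotide excision repair had no call among its 8 genes by their brightest probe sets, where 3.46% of all genes were called higher and 3.72% lower. By adjusted p 2 were higher and 4 lower, against 22.9% and 23.2% of all genes. The median was −0.03, −0.14 when scaled on reference genes. Ercc5, the endonuclease XPG that cuts on the 3′ side of the lesion, read 8.82, 8.87 and 8.84 in WT and 8.43, 8.41 and 8.35 in HDAC11−/− Tregs, with no overlap. It was the lowest of the 44 by brightest probe set, at −0.44 ± 0.05 or 1.36-fold lower (adjusted p = 0.000507). Ddb2, the subunit that recognises ultraviolet lesions, read 10.13, 10.17 and 10.17 against 9.85, 9.90 and 9.80, a difference of −0.31 (adjusted p = 0.0024), and its second probe set gave −0.42. Its partner Ddb1 passed in the opposite direction at 0.33 (adjusted p = 0.0022). The sensor Xpc (−0.21) and the TFIIH helicase Ercc2 (−0.26) were lower and the other TFIIH helicase Ercc3 (0.16) higher by adjusted p. Ercc1, which cuts on the 5′ side together with XPF, did not pass (0.17, adjusted p = 0.0867).

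Mismatch repair had 3 measured genes, 2 of them called higher, against 3.46% of all genes. Msh6, which recognises mismatches, read 9.24, 9.15 and 9.16 in WT and 9.78, 9.82 and 9.77 in HDAC11−/− (0.61 ± 0.05, 1.52-fold, adjusted p = 0.00017). Its groups were separate on every array, but with scaling on reference genes the difference was 0.49 and the call was lost. Exo1, an exonuclease of mismatch repair that also resects double-strand breaks, read 5.81, 5.88 and 5.80 against 7.20, 6.94 and 7.04. That was 1.23 ± 0.07 or 2.35-fold (adjusted p = 6.06e-05), while its second probe set lay at or below bacterial controls in both groups. Pms2, an endonuclease of mismatch repair, was lower by adjusted p (−0.33, adjusted p = 0.0112).

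Of the remaining genes Polh was called higher. Polh encodes polymerase eta, which copies past ultraviolet damage and also acts at A and T bases during somatic hypermutation. It read 6.67, 6.55 and 6.49 in WT and 7.42, 7.44 and 7.55 in HDAC11−/− Tregs (0.90 ± 0.06, 1.87-fold, adjusted p = 0.00012), and its second probe set passed the adjusted p at 0.37. Mgmt, which strips alkyl groups from guanine, did not pass (−0.10, adjusted p = 0.216). Polg, the mitochondrial polymerase, is described with the genes whose probe sets diverge.

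Several repair genes gave different answers through different probe sets. Of the 18 genes with more than 1 probe set, 7 (38.9%) had log2 differences that spread over at least 1, against 6.38% of the 4956 genes with several probe sets. Such a spread needs a probe set with a sizeable difference between the groups. The shares were not matched for that size or for the number of probe sets, so they do not compare disagreement alone. The largest spread was that of Polb, the gap-filling polymerase of base excision repair. Its brightest probe set (1434230_at) read 9.52, 9.55 and 9.53 in WT and 9.56, 9.58 and 9.58 in HDAC11−/−, a difference of 0.04 (adjusted p = 0.442). Another (1425371_at) read 8.53, 8.38 and 8.32 against 7.08, 6.88 and 6.70. That fell by 1.52 ± 0.11, or 2.87-fold (adjusted p = 0.000108), with no overlap, and the third (1434229_a_at) gave 0.11.

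Polg diverged in the same way. Its brightest probe set (1423272_at) read 10.39, 10.32 and 10.32 in WT and 9.96, 9.999 and 9.97 in HDAC11−/−, a difference of −0.37 (adjusted p = 0.000915). Probe set 1437564_at read 8.62, 8.49 and 8.52 against 7.03, 6.92 and 7.06, which fell by 1.54 ± 0.06, or 2.91-fold (adjusted p = 1.1e-05), while 1423273_at gave −0.13 (adjusted p = 0.052). All 3 probe sets of Polg were lower in HDAC11−/−, and only 1437564_at passed 1.5-fold. Xpa, the scaffold of nucleotide excision repair, split in direction. Its brightest probe set (1460725_at) read 8.18, 7.80 and 7.79 against 8.38, 8.20 and 8.17 (0.33, adjusted p = 0.0617), with overlapping groups. The dimmer 1437320_s_at read 6.13, 5.94 and 6.25 against 5.42, 5.27 and 5.34 (−0.76 ± 0.09, adjusted p = 0.000708), and 1456002_at lay at or below bacterial controls in both groups. The transcripts and exons that these probe sets read are not known here, so a change of the gene and a change of 1 transcript form cannot be told apart.

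**Figure D3:**
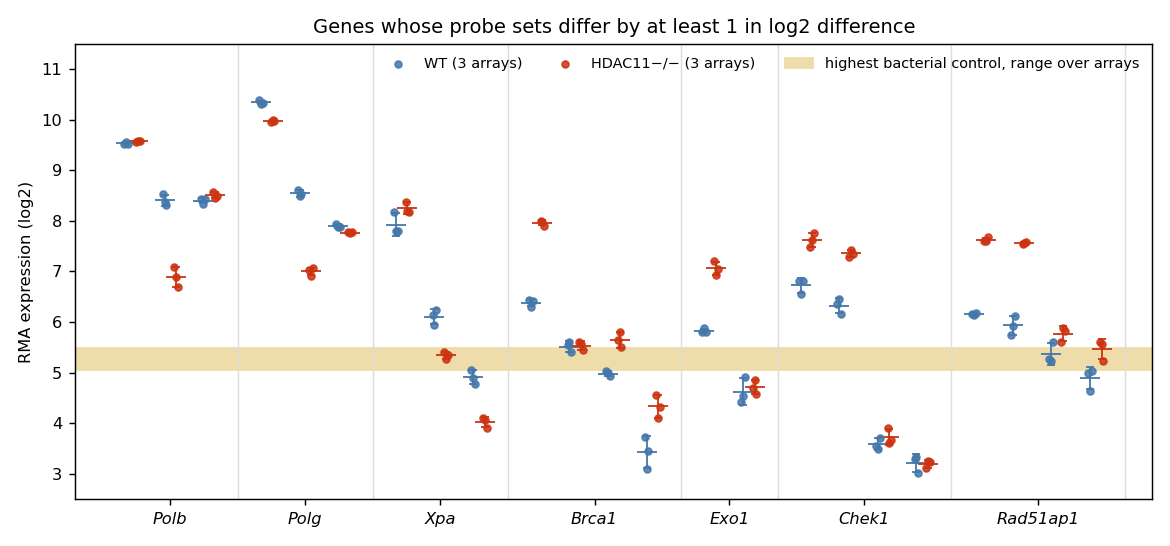
RMA expression (log2, vertical axis) of every probe set of the 7 genes whose probe sets spread over at least 1 in log2 difference, with 1 point per array, means as lines and SDs as error bars. The shaded band is the range over arrays of the highest bacterial control. Polb has 1 probe set well above the band that is lower in HDAC11−/− (−1.52), all 3 of Polg lie above the band and are lower (1 of them by 1.5-fold or more, −1.54), and the flat probe sets of Chek1 and Exo1 lie below the band.

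In the other 4 of these genes the flat probe sets were mostly dim. Chek1 had a pair of probe sets at 0.15 and −0.01, both at or below bacterial controls, beside those at 0.89 and 1.03. Rad51ap1 ranged from 0.40 to 1.63. Brca1 had a probe set above the controls in both groups (1427698_at, 5.51 ± 0.10 in WT and 5.53 ± 0.08 in HDAC11−/−, SD) with a difference of 0.02 (adjusted p = 0.842), beside 1451417_at, which was at least 1.20-fold higher. Averaging all probe sets of a gene left 9 of the 10 calls, without Chek1 (0.51), lowered the difference of Brca1 to 0.79, and made Polg a lower call (−0.68).

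The other genes of the same pathways were counted in the same way from lists by function. Of 79 measured, 10 were called higher and 0 lower, against 3.46% and 3.72% of all genes. By adjusted p 44 were higher and 14 lower, against 22.9% and 23.2% of all genes. The median was 0.23, as for the 44 genes, but the pathways differed. Medians of the other genes and of the 44 were 0.23 and −0.03 in nucleotide excision and 0.31 and 0.06 in base excision. They were 0.0079 (2 genes) and 0.61 (3 genes) in mismatch repair and 0.015 (6 genes) and 0.30 (3 genes) in end joining. For bypass, reversal and mitochondrial genes they were −0.02 (11 genes) and −0.10 (3 genes). In recombination they were 0.28 and 0.42, and in damage signalling 0.29 and 0.24. In damage signalling 4 of 16 were called higher, which were H2ax, the histone marked at breaks (1.07, adjusted p = 2.36e-05), the fork protection gene Tipin (0.85) and the phosphatases Cdc25b (0.82) and Cdc25c (0.85, with WT at the level of bacterial controls). In recombination and crosslink repair 3 of 22 were called, namely the nuclease subunit Eme1 (0.90) and the ubiquitin cycle of the Fanconi pathway, Ube2t (0.77) and Usp1 (0.66). In base excision 2 of 9 were called, the replicative ligase Lig1 (1.06) and the sliding clamp Pcna (0.59). In nucleotide excision 1 of 13 was called, the ligase scaffold Cul4a (0.66). None of 6 end joining, 2 mismatch repair or 11 bypass, reversal and mitochondrial genes was called. By adjusted p 5 of those 11 bypass, reversal and mitochondrial genes were higher and 5 lower. The higher ones included Ube2a (0.48), Mad2l2 (0.40) and Rad18 (0.38). The lower ones included the bypass polymerases Poli (−0.48), Polk (−0.40), Rev3l (−0.35) and Rev1 (−0.16), whereas Polh of the 44 was higher. Through a probe set other than the brightest, Fen1 (0.95), Xrcc4 (0.75) and Gtf2h4 (0.59) were called higher and Rad52 (−0.97) and Rev3l (−0.77) lower.

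**Figure D4:**
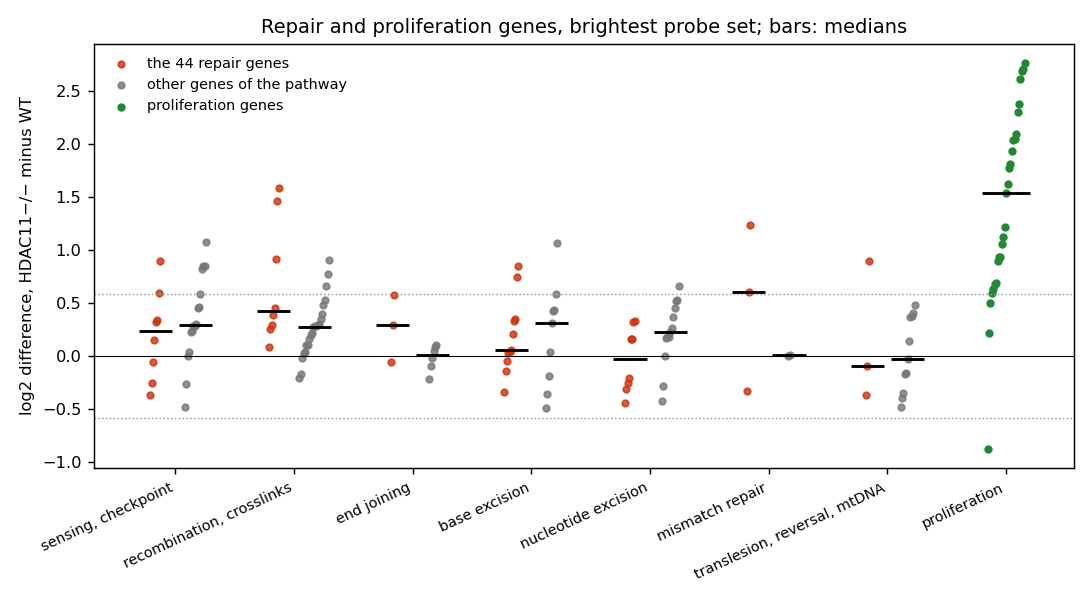
Difference of each gene (vertical axis, log2, HDAC11−/− minus WT, brightest probe set) for the 44 repair genes (red) and the other genes of each pathway (grey), beside 27 proliferation genes (green), with bars at medians and dotted lines at 1.5-fold. Repair genes centre between −0.10 and 0.61 by pathway, and proliferation genes at 1.54; on the scale of reference genes the base excision median of the 44 turns from 0.06 to −0.06.

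Genes of cell division were mostly higher in HDAC11−/− Tregs. Of 27 measured proliferation genes 23 were called higher and 1 lower (Tyms, −0.87, at the level of bacterial controls in HDAC11−/−). Their median was 1.54, and their mean level was 7.39 to 7.44 on the WT arrays and 8.82 to 8.89 on the HDAC11−/− arrays. Birc5 (2.76), Bub1 (2.68), Ccna2 (2.37) and Kif11 (2.30) are examples. Their part in the repair result was not tested. Of 18 targets of p53, the factor activated by DNA damage, 2 were called higher, against 3.46% of all genes. They were Pmaip1 (1.71), which encodes the death factor NOXA, and Gadd45a (1.13). Through any probe set 3 were called higher, against 5.31% of all genes. By adjusted p 8 were higher and 4 lower, against 22.9% and 23.2% of all genes. Ei24 (0.34) was among the higher and Trp53inp1 (−0.27) among the lower. The median of the 18 was 0.16 (0.046 when scaled on reference genes). The p53 target Cdkn1a, which encodes p21, did not pass (0.14, adjusted p = 0.0952), and neither did Mdm2 (0.17, adjusted p = 0.154).

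Marker genes of other cells also differed between the groups. B cell markers were called lower in 7 of 12 genes, among them H2-Aa (−1.602), Ms4a1 (−1.84), Blk (−2.48) and Cd74 (−0.79). The mean level of the 12 was 7.83 to 7.88 in WT and 6.97 to 7.04 in HDAC11−/−. Pax5, Ebf1 and Fcrla lay at or below bacterial controls in both groups. Ighm, the brightest of the 12, did not pass (−0.11, limma adjusted p = 0.0811), and 1 of the 12 was called higher through another probe set. Dendritic cell markers were called lower in 2 of 8 (H2-Ab1 and Batf3; mean level 6.83 to 6.92 and 6.51 to 6.54) and those of CD8 T and NK cells in 2 of 9 (Fcer1g and Ncr1; 7.50 to 7.58 and 7.15 to 7.19). By adjusted p 5 of these 9 were lower and 1 was higher, Cd8b1 (0.42, limma adjusted p = 0.00671). Macrophage markers were called higher in 4 of 11 (Lyz1, C1qa, C1qb and C1qc; 4.90 to 4.98 and 5.12 to 5.33), with 7 of 11 at or below bacterial controls in WT and C1qb so in both groups, while Fcgr3 was lower by adjusted p (−0.50, adjusted p = 0.0204). None of 14 Treg, 8 CD4 T cell or 4 erythroid markers was called. By adjusted p 2 Treg markers were higher and 5 lower, against 22.9% and 23.2% of all genes. Ctla4 (0.50) was among the higher and Ikzf4 (−0.48) among the lower. Of the CD4 T cell markers 1 was higher and 2 lower by adjusted p, with Cd4 at −0.32. Of the erythroid markers 1 was higher, Slc4a1, with WT at the level of bacterial controls. Immediate early genes were called higher in 12 of 21, up to Fos at 5.65. The part of these differences in the repair result was not tested, and in bulk RNA fewer cells of a type and less RNA per cell cannot be told apart.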

How the data were processed

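The 6 arrays measured RNA of 3 WT and 3 HDAC11−/− Treg samples, grouped by their titles. After amplification and biotin labelling of the RNA, the authors normalized the arrays by RMA. The values they deposited are on the log2 scale, and no raw probe values were used here. The version of the probe definitions and its genome build are not given in the sources used here. Of 22671 probe sets 45 controls were left out. The other 22626 were named through the platform annotation, with 20380 carrying 1 symbol, 691 several and 1555 none here. Symbols on the lists were matched directly or through RefSeq synonyms.

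Genotype was the only term of a limma 3.58.1 model (lmFit, eBayes; R 4.3.3), two-sided, with Benjamini-Hochberg adjustment over all probe sets. Calls used the methods' limits, 1.5-fold and an adjusted p of 0.05. For each gene the brightest probe set, by mean of all arrays, was taken. Detection calls were not part of the files used, so a probe set at or below the highest bacterial control of each array (means 5.39 in WT, 5.14 in HDAC11−/−) has only a bound in that group. Values per array are given for genes called by any probe set and for those past the adjusted p with at least 1.3-fold. Called genes of other pathway lists are named, up to 6 a direction, and up to 4 per marker list. Cdkn1a, Mdm2, Il2ra, Foxp3, Fcgr3, Ighm and Cd8b1, the uncalled bypass genes, and genes called through another probe set were named beyond this rule. The 44 genes, the lists and the tests were chosen with earlier results of these data known. Alternatives were SAM over all 20 labelings (the test of the methods), other priors, array weights, a replicate block, other scalings, filters, folds and gene representations, and leaving out each array. The procedure was tested on simulated data. Promoter windows were read from the RefSeq table of GRCm38.p6.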

Additional observations from a re-analysis of the deposited data

How the results depend on the processing

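Across 18 other fits the count of repair genes called higher stayed between 8 and 11 except where the fold threshold changed, and in each of them Brca1, Rad51ap1 and Exo1 remained called. SAM, an intensity trend and leaving out dim probe sets gave 10 higher and 0 lower. The constant that SAM adds to the SD term of each probe set was 0.507, as large as the largest such term. SAM then ranks probe sets mostly by the size of the difference, so its same count is a weak check. The replicate block also gave 10 and 0. Same-numbered arrays of the groups correlated in their deviations at 0.23, −0.02 and 0.16, and differently numbered ones at −0.21 to 0.06. These values do not settle whether the numbers pair the samples, and the reported fit did not pair them. The block changed no call of a named repair gene. Without a fold threshold 22 were higher and 8 lower (5254 and 5070 over all probe sets, against 876 and 1138), and with 2-fold 3 were higher (253 and 393 over all probe sets). Scaling on reference genes lost Nbn and Msh6, gave a median of 0.11, turned Polb to −0.072, and moved all probe sets to 562 higher and 1704 lower. The mean of all probe sets turned Polb (−0.46) and Xpa (−0.44) and made 1 gene lower, and counting any probe set made 3 lower. Scaling on bacterial controls or array weights added Xrcc5, and probe sets without a suffix left Ung untested. Leaving out each array gave 9 to 11 higher and 0 lower, a median of 0.18 to 0.23, and 865 to 933 higher and 1098 to 1177 lower over all probe sets. The cause of these shifts was not tested. Probe sets near bacterial controls limit what can be said of Bard1 and the dim probe sets.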
